A study of Mus musculus with 18 samples.

Results

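The Serpina cluster genes followed here are 9 protein-coding genes of mouse chromosome 12 (Serpina1a, Serpina1b, Serpina1c, Serpina1d, Serpina1e, Serpina3k, Serpina3m, Serpina6 and Serpina10), taken by name from the 55450 genes of the GENCODE M21 annotation of GRCm38. Peaks of liver RNA were compared in 18 libraries, with 3 biological replicates in each of 6 groups. All mice were 8 to 9 days old and lacked Mavs, the adaptor through which the RNA sensor MDA5 signals. The editing-deficient Adar-/-; Mavs-/- mice also lacked Adar, which encodes the adenosine deaminase that turns adenosine into inosine in double-stranded RNA, whereas the Mavs-/- mice, called wild-type in the sample titles, kept it. Both deletions affect the whole animal, so that a change in the number of cells of a type and a change in the RNA of each cell cannot be told apart in these tissue samples. The paper describes a backcross to Bl6J for the double mutant mice and does not say whether the Mavs-/- mice had it too. Input RNA was total liver RNA without digestion. RNase-only RNA was digested with RNase A/T1 without added protein, and MDA5-protected RNA was digested after incubation with MDA5 that lacks its CARD signalling domains.

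Serpins are proteins that present an exposed loop, the reactive centre loop, as bait to a protease, and most of them trap the protease by a large change of shape once the loop has been cut. Hepatocytes secrete many serpins of clade A into the plasma, where they are among the abundant proteins. Many clade A genes of the mouse sit side by side in a cluster that has grown by gene duplication, and several of them are close copies of each other.

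Each library came with its own peak list, in which a peak is a stretch of 1 strand where aligned reads passed an adjusted P-value of 0.01 and the area under the significance curve was at least 500. Peaks of digested RNA had been called against the input of the same genotype, and peaks of the input had been called as well. The input lists held 4326 to 8948 peaks, the RNase-only lists 3150 to 6094 and the MDA5-protected lists 1180 to 2868. The editing-deficient input lists (6991 to 8948 peaks) were all longer than those of the Mavs-/- input (4326 to 6625). The measure used for each gene is the percent of its exonic bases that lay under peaks on its own strand. Read counts are not part of the lists, which leaves the depth of each value unknown, and a gene without a peak is not shown to lack RNA.

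The hepatocyte origin of the samples was visible in the input lists, where 6 of 6 hepatocyte markers (Alb, Apoa1, Apoa2, Ttr, Trf and Fgb) had exonic peaks in all 6 libraries. Adar had an exonic peak in 2 of 3 editing-deficient and 0 of 3 Mavs-/- input libraries, and Mavs had none in any library. Peaks say where a transcript was detected and do not show whether it is intact, so neither gene checks the labels here.

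In the undigested RNA, all 9 genes had exonic peaks in at least some libraries. Of the 9 genes, 8 had exonic peaks in all 6 input libraries, and the remaining gene, Serpina6, had them in 3. Among all 5274 genes with an exonic input peak, 1319 had one in all 6 input libraries. After digestion the exons of all 9 genes were without any peak in each of the 6 RNase-only and each of the 6 MDA5-protected libraries.

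Serpina1a to Serpina1e encode secreted proteins of the α1-antitrypsin type. The protease targets of the single copies were not examined here. All 5 lie on the minus strand of chromosome 12, and their reference transcripts have 5 exons, the first of which is non-coding. Serpina1b spans chr12:103728156-103830373, Serpina1d chr12:103763594-103773592, Serpina1a chr12:103853589-103863562, Serpina1c chr12:103894926-103904887 and Serpina1e chr12:103946931-103958975. The body of Serpina1b contains the whole of Serpina1d (9999 bases) on the same strand, although their exons share 0 bases. The body of Serpina1b held 11 to 14 own-strand peaks per input library, of which 4 touched its own exons, 4 to 6 lay in the body of Serpina1d and 3 to 5 in that of the pseudogene Gm8893.

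The 5 coding sequences each have 1239 bases, and 86 positions (6.94%) differ in at least 1 copy. Pairwise identity of the coding sequences ranged from 96.3% to 98.5% over the 10 pairs. The differences are unevenly spread, with 18 among the 628 coding bases of exon 2 (2.87%), 29 among the 271 of exon 3 (10.7%), 15 among the 151 of exon 4 (9.93%) and 24 among the 189 of exon 5 (12.7%). Exon 5 encodes the reactive centre loop. The 30 bases with the most differences, 13, are coding bases 1102 to 1131 in this exon. They are printed because they are what tells the copies apart, 5′ to 3′ on the coding strand from the GENCODE M21 transcripts, with the positions that differ among the copies in capitals.
Serpina1a: gcagTtacagtcttACAaATGgTtCCtATG
Serpina1b: gcagCtacagtcttTGAaGCCgTtCCtATG
Serpina1c: gcagCtacagtcttACTaGCCgTtCCtTAT
Serpina1d: gcagCtacagtcttACAaGTCgCtACtTAT
Serpina1e: gcagCtacagtcttACAaGGCgGtTTtTTG
These bases lie at chr12:103853786-103853815 in Serpina1a, chr12:103728353-103728382 in Serpina1b, chr12:103895123-103895152 in Serpina1c, chr12:103763791-103763820 in Serpina1d and chr12:103947129-103947158 in Serpina1e, all on the minus strand. In each of the 5 genes they were fully covered by peaks in 6 of 6 input libraries.

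The longest stretch without a difference runs over 226 bases, coding bases 337 to 562 in exon 2. A piece from its middle, coding bases 435 to 464, is printed in lower case because no position in it varies, and it stands for all 5 copies.
Serpina1a to Serpina1e: ggagaagtttctggaagaggccaagaacca
This piece lies at chr12:103732125-103732154 in Serpina1b and chr12:103767580-103767609 in Serpina1d, where it was fully covered in 6 of 6 input libraries. The same letters lie at chr12:103857589-103857618 in Serpina1a, chr12:103898922-103898951 in Serpina1c and chr12:103950945-103950974 in Serpina1e, where they were under a peak in 0 of 6 libraries. A read from this piece carries no base that names its gene, and how the aligner placed reads with several equally good sites is not given in the sources used here.

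The extent of sharing was measured with words of 75 bases, the length of the reads before trimming, from each reference transcript. A word was called shared when a transcript of another gene holds it too. Of the words of Serpina1a, 69.6% were shared, against 66.1% for Serpina1c, 37.1% for Serpina1d, 25.1% for Serpina1b and 20.3% for Serpina1e. These shares are over whole reference transcripts, whose non-coding first exon has 430 bases in Serpina1b and 62 in Serpina1d. Serpina1a and Serpina1c were the closest pair, with 62.8% of the words of Serpina1a found in Serpina1c. Outside the 9 genes, the words of the 5 copies were found in the pseudogene Gm8893, which lies inside the body of Serpina1b at chr12:103817856-103822243 and had 3 to 5 own-strand peaks in each input library and 0 in each digested library. Trimmed reads may be shorter, and with words of 30 bases the shares rose to 90.4% for Serpina1a, 82.7% for Serpina1c, 65.6% for Serpina1d, 56.5% for Serpina1e and 52.9% for Serpina1b.

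Serpina1d had the highest mean coverage of the 9 genes over the 6 input libraries, although Serpina3k was higher in the editing-deficient ones. Own-strand peaks lay over 92.5%, 95.6% and 89.8% of its exonic bases in editing-deficient input replicates 1, 2 and 3, and over 89.8%, 95.6% and 86.9% in the Mavs-/- replicates. The values of the genotypes overlapped, with means of 92.6% ± 2.87 and 90.7% ± 4.41 (SD, n = 3 each). Its exon 2 (chr12:103767416-103768047) was covered from end to end in 6 of 6 input libraries by the strongest peak of the gene, which had an area of 8403 to 11396 and was at or above 99.3% of the peaks of its library or more. Per exonic kilobase, the area of Serpina1d was the largest of the 9 genes in 6 of 6 input libraries. Exon 2 holds the stretch identical in all 5 copies, and how reads from it were placed is not known.

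Serpina1b reached 51.5%, 55.2% and 55.1% in the editing-deficient and 52.6%, 52.6% and 51.4% in the Mavs-/- input libraries. These percentages refer to all annotated transcripts of the gene, which include long non-coding first exons without peaks. Of exons 2 to 5 themselves, the median coverage in the input was 92.8%, 100%, 100% and 100%. The genotypes overlapped (53.9% ± 2.09 and 52.2% ± 0.693, SD, n = 3 each).

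Serpina1a was under peaks over 59.2%, 56.6% and 59.1% of its exonic bases in the editing-deficient and 58.8%, 56.7% and 56.7% in the Mavs-/- input libraries. The SD over the 6 libraries was 1.30 percentage points, the smallest among the 9 genes. A core of exon 2 was uncovered in every library, with edges that varied. In this exon (chr12:103857425-103858056), bases 247 to 492 were covered in 0 of 6 input libraries (chr12:103857565-103857810, 246 bases), between a peak upstream and a peak downstream that were present in all 6. No 75-base word sets any of these 246 bases apart from other genes.

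Serpina1c had a gap at the same place of exon 2 (chr12:103898758-103899389), where bases 348 to 493 were covered in 0 of 6 input libraries and all 146 bases are shared. Its coverage varied more than that of Serpina1a, with 78.6%, 63.7% and 63.9% in the editing-deficient and 47.8%, 62.6% and 71.8% in the Mavs-/- input libraries. The lowest value, in Mavs-/- replicate 1, came with 0% of exon 3 and of exon 4 under peaks. The genotypes overlapped (68.7% ± 8.55 and 60.7% ± 12.1, SD, n = 3 each). A gene on the opposite strand, B430119L08Rik, overlaps Serpina1c, but no peak on the opposite strand was found in the body of Serpina1c.

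Serpina1e was the least covered of the 5 copies. Peaks lay over 26.2%, 26.0% and 41.6% of its exonic bases in the editing-deficient and over 26.6%, 27.1% and 25.8% in the Mavs-/- input libraries. The high value of editing-deficient replicate 3 came from a peak over 37.0% of exon 2, an exon that was without peaks in the other 5 libraries. Exon 3 (chr12:103949047-103949317) had a median coverage of 83.9% and exon 5 (chr12:103946931-103947209) of 71.7%, whereas exon 4 was covered in 0 of 6 libraries although all of its 151 bases lie under words found in no other gene.

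**Figure D1:**
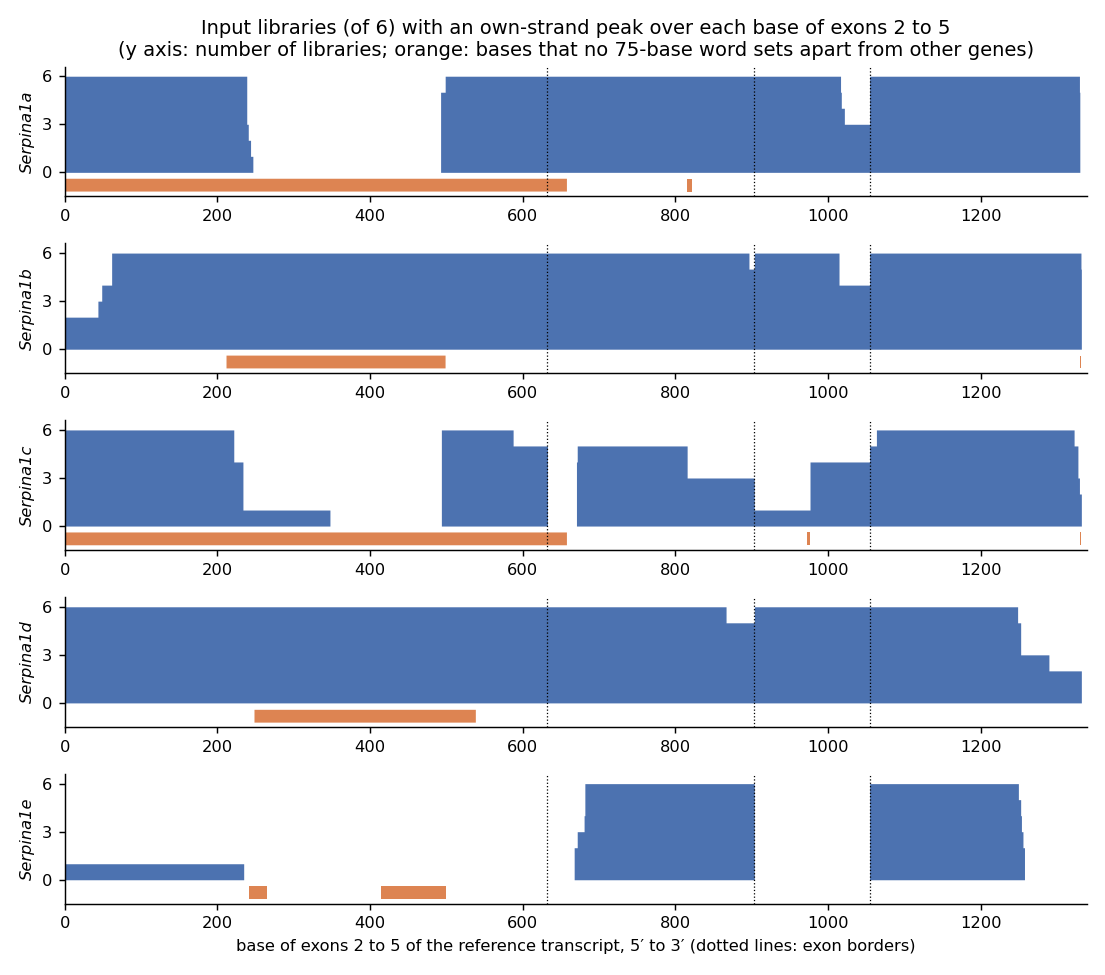
Number of the 6 input libraries (y axis) with an own-strand peak over each base of exons 2 to 5 of the reference transcripts of Serpina1a to Serpina1e (x axis, bases 5′ to 3′, dotted lines at exon borders). Orange bars mark bases under no 75-base word that is absent from all other genes. Serpina1a and Serpina1c show a gap within the orange stretch of exon 2, where Serpina1b and Serpina1d are covered in all 6 libraries.

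Coverage of shared and of distinguishing bases was then compared within exons 2 to 5, where a base counts as distinguishing if at least 1 word over it occurs in no other gene. In Serpina1a, 94.3% to 100% of the 664 distinguishing bases but 61.0% to 63.1% of the 666 shared bases were covered, so that the ranges over the 6 input libraries did not overlap. In Serpina1e, the distinguishing bases reached 34.1% to 55.0% and the 110 shared bases 0% in 6 of 6 libraries. These 110 bases all lie in a stretch of 398 bases of exon 2 that was covered in 0 of 6 libraries. Of that stretch 27.6% is shared, and the uncovered stretches of Serpina1e in exons 4 and 5 are 0% shared. The contrast in Serpina1e thus rests on an exon that was under a peak in 1 of 6 libraries. Serpina1c showed higher coverage of distinguishing bases in 5 of 6 libraries, with medians of 74.5% and 55.9%.

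Serpina1d and Serpina1b showed the opposite order in 4 of 6 libraries each. The 291 shared bases of Serpina1d were covered completely in 6 of 6 libraries and its 1041 distinguishing bases over 88.4% to 100%, with equal values in 2 libraries. In Serpina1b, the 291 shared bases were covered over 99.7% to 100% and the 1041 distinguishing bases over 91.4% to 100%, with equal values in 1 library and higher coverage of distinguishing bases in 1. The number of shared bases differs between the copies (666 in Serpina1a, 667 in Serpina1c, 291 in Serpina1b and Serpina1d, 110 in Serpina1e). The shared bases are thus not the same sequence in each gene. Part of them lies in the stretch of exon 2 that is identical in all 5 copies. The values are therefore not independent of each other, and no test was made across genes.

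**Figure D2:**
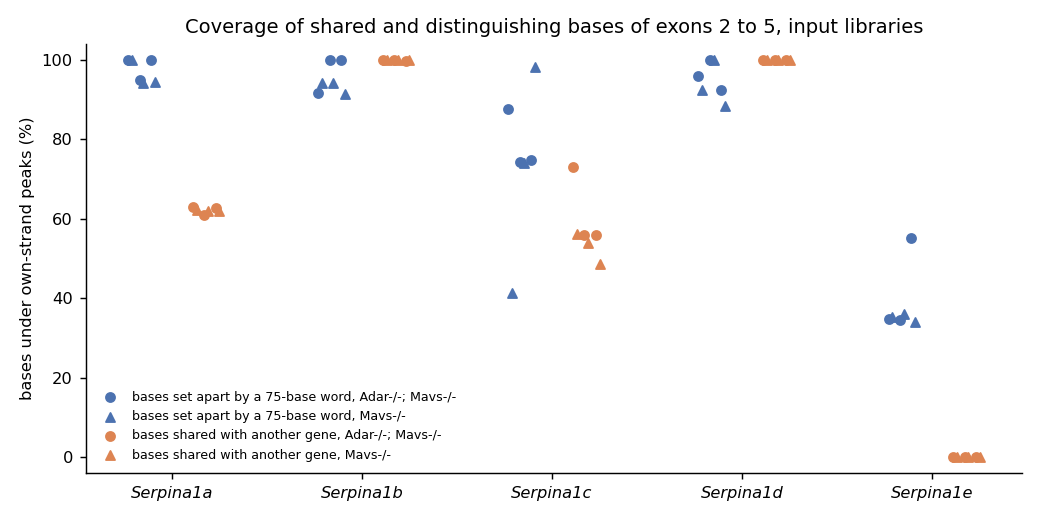
Percent of bases under own-strand peaks (y axis) in exons 2 to 5 of the 5 Serpina1 genes (x axis), for bases set apart by a 75-base word (blue) and bases shared with another gene (orange). Each symbol is 1 input library, with circles for Adar-/-; Mavs-/- and triangles for Mavs-/-. Shared bases are near 100% in Serpina1b and Serpina1d, near 62% in Serpina1a and at 0% in Serpina1e. Those of Serpina1e all lie in a stretch of exon 2 without input peaks, and the shared bases are not the same sequence in each gene.

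Serpina3k and Serpina3m belong to the branch of the family related to human α1-antichymotrypsin, and Serpina3k is known as a binding protein of tissue kallikrein. Both are on the plus strand and start at the same base of chromosome 12. Serpina3k spans chr12:104338486-104346144 and lies wholly inside the body of Serpina3m (chr12:104338486-104394257), with which it shares 60 exonic bases in the annotation. Of their 75-base words, 7.36% were shared for Serpina3k and 9.65% for Serpina3m. With up to 2 mismatches against the other 8 genes the shares were 19.4% and 24.2%, and with words of 30 bases they were 25% and 36.0%.

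Serpina3k was covered over 96.9%, 91.7% and 96.8% of its exonic bases in the editing-deficient and over 87.9%, 80.1% and 86.4% in the Mavs-/- input libraries. All 3 editing-deficient values were above all 3 Mavs-/- values. The means were 95.2% ± 2.96 and 84.8% ± 4.13 (SD, n = 3 each), a difference of 10.4 percentage points (p = 0.1, two-sided exact permutation test, the smallest p that 3 libraries against 3 can give). Serpina3m was covered over 81.1%, 88.9% and 84.1% in the editing-deficient and 82.5%, 78.7% and 79.8% in the Mavs-/- libraries, with overlapping groups. Exon 4 of Serpina3m was under a peak in 1 of 6 input libraries, whereas its exon 2 was covered completely in all 6.

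Serpina10 encodes the protein Z-dependent protease inhibitor, which inactivates coagulation factor Xa. The gene lies on the minus strand at chr12:103614786-103631444 and has no 75-base word in common with the other 8 genes. Peaks covered 42.7%, 34.1% and 37.9% of its exonic bases in the editing-deficient and 24.3%, 16.2% and 23.5% in the Mavs-/- input libraries. The groups did not overlap here either, with means of 38.2% ± 4.33 and 21.3% ± 4.44 (SD, n = 3 each) and a difference of 16.9 percentage points (p = 0.1, exact permutation test).

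By the share of an exon covered, exons 3 and 2 of Serpina10 stood highest. Exon 3 (chr12:103626610-103626883) had a median coverage of 93.8% and exon 2 (chr12:103628229-103628997) of 56.2%. Of the long exon 5 (2243 bases), which holds most of the 3′ untranslated region, the last 1751 bases were covered in 0 of 6 input libraries. By area per exonic kilobase Serpina10 took rank 8 or 9 of the 9 genes in each input library.

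Serpina6 encodes corticosteroid-binding globulin, which carries glucocorticoids in the plasma and does not inhibit a protease. It lies on the minus strand at chr12:103646630-103657212, and none of its words of 75, 50 or 30 bases was found in another gene. Peaks covered 50.9% of its exonic bases in editing-deficient replicate 2, and 39.2% and 55.0% in Mavs-/- replicates 1 and 2, and were absent from editing-deficient replicates 1 and 3 and from Mavs-/- replicate 3. Its libraries with and without peaks were thus found in both genotypes. Where present, the peaks lay in exon 2 (chr12:103653897-103654507) and exon 5 (chr12:103646630-103647031), and the strongest exceeded 62.1% to 70.2% of the peaks of its library.

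**Figure D3:**
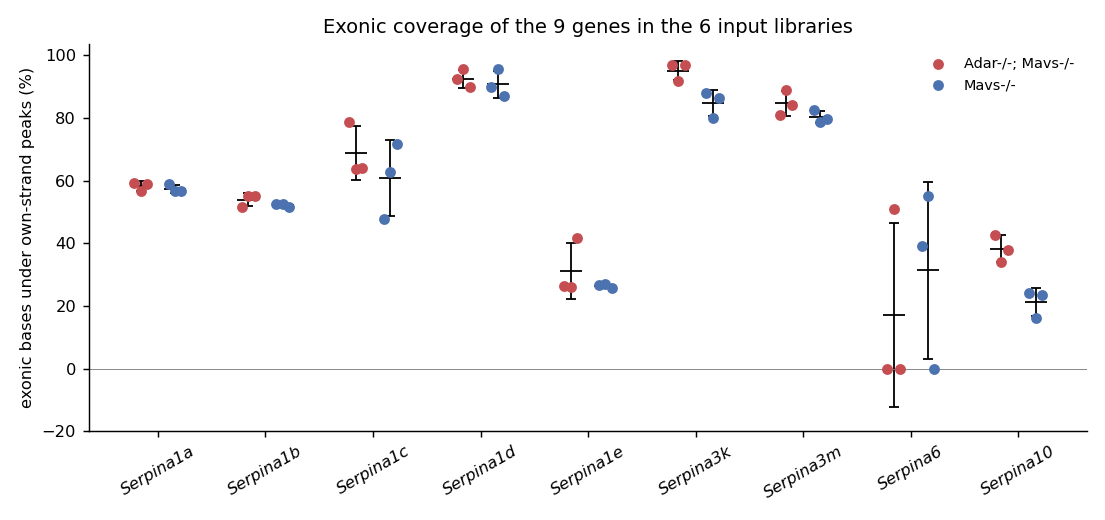
Percent of exonic bases under own-strand peaks (y axis) for each of the 9 genes (x axis) in the input libraries. Points are libraries, the horizontal mark and bars are the mean ± SD of 3 libraries, and error bars of Serpina6 reach below 0 because 3 of its 6 values are 0. The genotypes do not overlap for Serpina3k and Serpina10.

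By mean percent of exonic bases covered over the 6 input libraries, the order was Serpina1d (91.7% ± 3.48), Serpina3k (90.0% ± 6.52), Serpina3m (82.5% ± 3.68), Serpina1c (64.7% ± 10.4), Serpina1a (57.8% ± 1.30), Serpina1b (53.1% ± 1.68), Serpina10 (29.8% ± 10.0), Serpina1e (28.9% ± 6.25) and Serpina6 (24.2% ± 27.0; SD, n = 6 each). Neighbours in this order lay within the SD of at least 1 of them for Serpina1d and Serpina3k, for Serpina1c and Serpina1a, and for Serpina10, Serpina1e and Serpina6. This order depends on how many untranslated exons are annotated, and so does area per exonic kilobase, which divides by the same exonic length. How reads from shared bases were placed among the 5 Serpina1 copies is not known, and its part in either order was not tested. The exon 2 peak of Serpina1d (area 11396 in editing-deficient replicate 1) includes the stretch identical in all 5 copies. Area per exonic kilobase gave Serpina1d rank 1 and Serpina1e rank 7 in 6 of 6 libraries, and placed Serpina6 and Serpina10 in ranks 8 and 9. By summed area without this division, Serpina1d was below Serpina1b in Mavs-/- replicate 1 (13484 and 13605). It was also below Serpina3k in editing-deficient replicates 1 (22003 and 23793) and 3 (21262 and 23368), where peaks of Serpina3k run past the gene. In the remaining input libraries the summed area of Serpina1d was the largest.

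**Figure D4:**
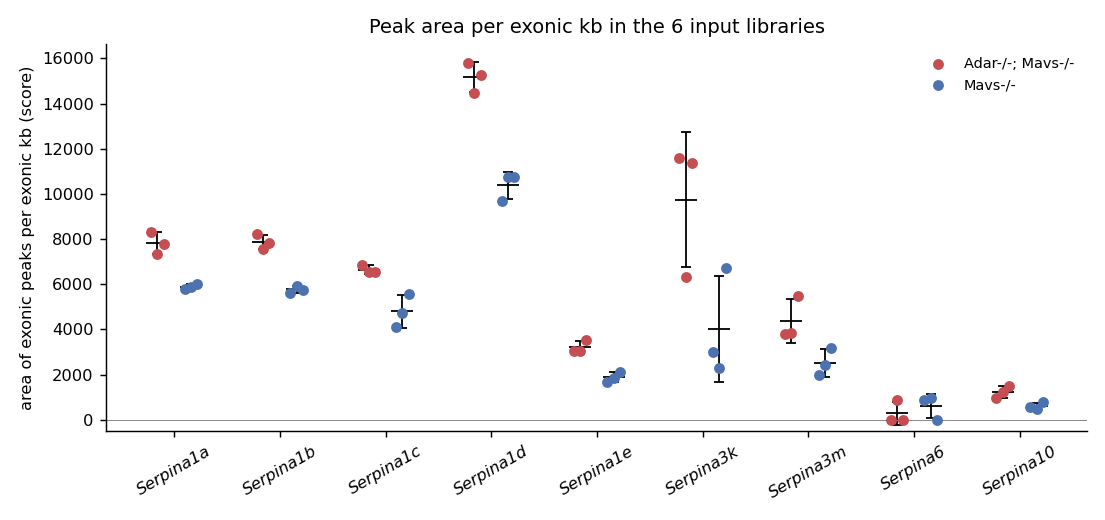
Summed area of the peaks that touch a gene's exons, per exonic kilobase (y axis, a score without unit), for the 9 genes (x axis) in the input libraries. Points are libraries and marks are the mean ± SD of 3. The area grows with depth and is to be compared between genes of the same library. Serpina1d lies highest in every library, and the value of Serpina3k in editing-deficient replicates 1 and 3 includes peaks that run past the end of the gene. How reads from shared bases were placed among the Serpina1 copies is not known.

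In the comparison of genotypes, which asks whether peak coverage of these transcripts differed before digestion, the coverage of 2 of 9 genes (Serpina3k and Serpina10) did not overlap between genotypes in the input, both with higher values in editing-deficient liver. Over all 5274 genes with an exonic input peak, 16.5% were higher without overlap, 3.01% were lower and 19.5% differed in either direction, so that 2 of 9 is near the share for all genes. Of the 9 genes, 8 had the higher mean in editing-deficient liver, with Serpina6 as the exception, and 73.0% of all genes did. The median difference was 4.40 percentage points for the 9 genes and 3.42 for all genes. For Serpina1a (0.837 percentage points), Serpina1b (1.70), Serpina1d (1.87), Serpina1e (4.78), Serpina3m (4.40) and Serpina1c (8.03) the genotypes overlapped. The value of Serpina1c fell to 1.56 without Mavs-/- replicate 1 and 3.10 without editing-deficient replicate 1, and was 13.6 without Mavs-/- replicate 3.

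The editing-deficient lists also held more peaks, and markers of erythroid cells, which populate the liver of young mice, moved the other way. Of 6 erythroid genes, 4 (Hba-a1, Hba-a2, Hbb-bt and Alas2) had lower coverage without overlap in the editing-deficient input, and the summed coverage of the list was 264 to 344 percentage points in the editing-deficient and 381 to 468 in the Mavs-/- libraries. Alas2 had no peak in the editing-deficient libraries. The 4 endothelial markers summed to 17.0 to 41.2 percentage points in the editing-deficient and 0 to 14.8 in the Mavs-/- libraries, also without overlap, and the 6 hepatocyte markers to 426 to 485 and 466 to 487. The part of cell composition in the values of Serpina3k and Serpina10 was not tested. With equal numbers of the strongest peaks in each library (4326 in the input), both genes still did not overlap between genotypes, whereas with a minimum area of 1000 Serpina10 overlapped and Serpina1b, Serpina1e and Serpina3m did not. In that setting 4 of the 9 genes and 472 of all 2342 genes (20.2%) did not overlap.

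After digestion, the Serpina cluster was missing from the exonic peaks. In RNase-only RNA, which asks which RNA resists the nucleases on its own, the exonic coverage of all 9 genes was 0% in each of the 6 libraries, against the input values given above. The 9 genes entered this comparison through their input peaks alone, and digested lists hold only peaks called above the input, so the direction was fixed and the values are given as a description of the lists and not of RNA amounts. The mean coverage over the 6 libraries was 24.2 (Serpina6) to 91.7 percentage points (Serpina1d) below the input. The exact permutation test within genotypes called 8 of the 9 genes lower, all but Serpina6. Among all 7244 genes tested it called 17.4% lower, 2.83% higher and 20.2% in either direction, and nothing is read from the count of 8.

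In MDA5-protected RNA the exonic coverage of all 9 genes was again 0% in 6 of 6 libraries, so that no gene could be tested against RNase-only RNA or between genotypes in either digested fraction. Among all genes with an exonic peak, 3.08% of 3544 did not overlap between genotypes in RNase-only RNA (2.23% higher and 0.847% lower in editing-deficient RNA), and 6.02% of 598 did not in MDA5-protected RNA (3.68% higher and 2.34% lower). In the comparison of MDA5-protected with RNase-only RNA, 0 of 3718 genes (0%) passed the adjustment and 500 had an unadjusted p under 0.05 (exact permutation test). An absence of exonic peaks after digestion was common among genes seen in the input. Of the 1319 genes with exonic peaks in all 6 input libraries, 69.7% had none in any of the 12 digested libraries, 70.4% had none in RNase-only RNA and 94.7% had none in MDA5-protected RNA.

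Outside the exons, digested peaks were found behind Serpina3k. Between the last base of Serpina3k and the next exon of Serpina3m lies part of an intron of Serpina3m (chr12:104346145-104387163). All digested peaks found on the own strand of any of the 9 genes fell within the first 2578 bases of this part. In editing-deficient RNase-only replicate 2, a peak of 132 bases lay at chr12:104347999-104348130. In MDA5-protected RNA, editing-deficient replicate 1 had a peak of 203 bases at chr12:104348396-104348598, and replicate 2 had peaks of 132 bases at chr12:104347999-104348130 and of 379 bases at chr12:104348344-104348722. Editing-deficient replicate 3 and all 3 Mavs-/- replicates had none in either digested fraction. The peaks had areas of 770 to 1102, at or above 59.7% to 79.2% of the peaks of their library.

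When the steps that the authors used to join replicates were applied, the RNase-only peak was dropped for lack of a peak within 200 bp in another replicate, and 2 of the 3 MDA5-protected peaks were kept as 1 joined stretch of 379 bases, chr12:104348344-104348722, in editing-deficient RNA. Of the 1301 genes with an own-strand MDA5-protected peak outside their exons, 19.7% had such peaks in at least 2 editing-deficient and no Mavs-/- libraries, as Serpina3m did, and 1.23% showed the reverse. This count was chosen after the peaks of Serpina3m had been seen. In RNase-only RNA these shares were 11.8% and 2.05% of 2591 genes.

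The part of the intron behind Serpina3k also held peaks in the input, but no input peak reached the joined stretch. In editing-deficient replicates 1 and 3, the peak over exon 5 of Serpina3k ran on without a break to base 1944 past the end of the gene, and in editing-deficient replicate 2 and Mavs-/- replicate 3, separate peaks covered 1405 and 1918 bases there. Mavs-/- replicates 1 and 2 had no input peak in this part of the intron. The input peaks reached base 1944 at the farthest, the 132-base peaks of the digested RNA started at base 1855, and the longer MDA5-protected peaks started at bases 2200 and 2252. No library had a peak on the opposite strand in this intron.

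**Figure D5:**
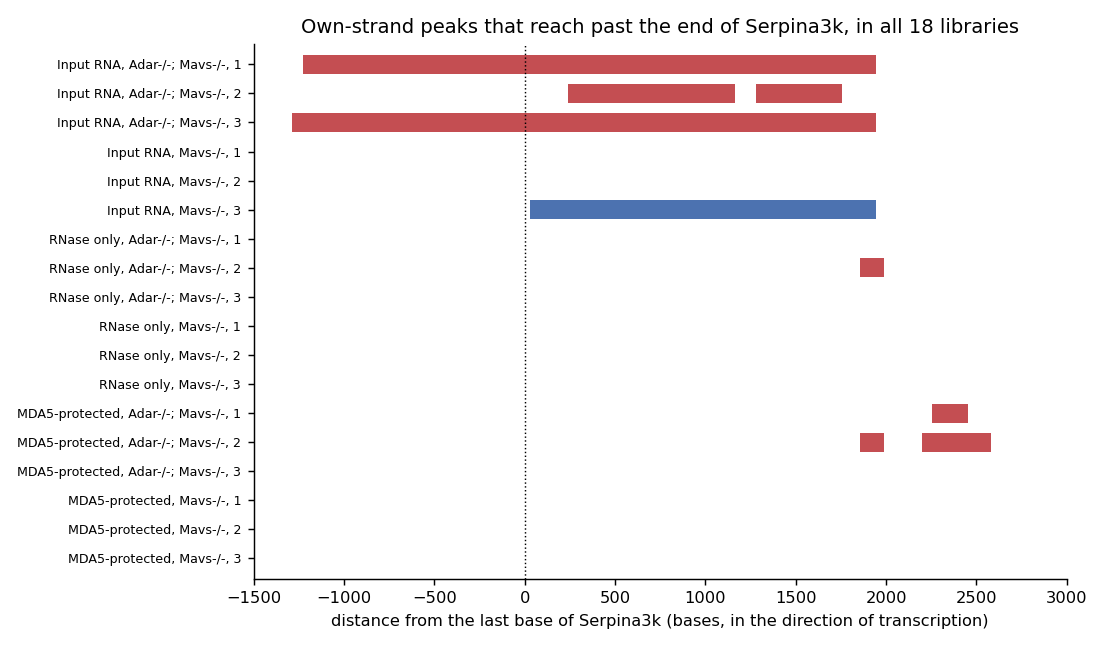
Own-strand peaks that reach past the end of Serpina3k, by library (y axis: fraction, genotype and replicate), drawn by distance from the last base of the gene (x axis, bases in the direction of transcription, dotted line at the end of the gene). Bars are peaks, red for Adar-/-; Mavs-/- and blue for Mavs-/-. Digested peaks are seen in editing-deficient libraries 1 and 2 and lie at or beyond the end of the input peaks.

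On the strand opposite to the genes, a peak was found within the bodies of the 9 genes in 1 library. It lay over exon 2 of Serpina1b in Mavs-/- input replicate 3 (chr12:103731965-103732372), including the stretch that is identical in the 5 copies.

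The other genes of the family gave a mixed background. Of 17 other Serpina genes, 7 had an exonic input peak in at least 1 library (Serpina3c, Serpina3f, Serpina3g, Serpina3h, Serpina3n, Serpina7 and Serpina11), 3 of them in all 6 (Serpina3n, Serpina7 and Serpina11), and 0 had an exonic digested peak. Among other serpins, Serpinc1, Serpind1, Serpinf1, Serpinf2, Serping1, Serpinh1 and Serpinb6a had an exonic input peak in at least 1 library. Serpinb1a and Serpinb6a belong to the clade of intracellular serpins. Serpinb1a, an inhibitor of neutrophil proteases, was covered over 68.5% ± 2.75 and 54.3% ± 25.3 (SD, n = 3 each) of its exons in editing-deficient and Mavs-/- RNase-only RNA and over 0% in the input.

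The protein-coding genes, Serpina genes aside, whose coverage in the 18 libraries was most like that of Serpina1d, by the mean absolute difference, were Itih2 (0.772 percentage points), Serpinf2 (0.846), Ahsg (0.933), Gc (0.942) and Mettl7b (1.03). All 5 had exonic peaks in 6 of 6 input and 0 of 12 digested libraries. Those most like Serpina6 were Acat3 (3.35 percentage points), Hdhd3 (3.38), Car3 (3.54), Inmt (3.76) and BC025446 (3.77), with peaks in 2 to 4 of 6 input libraries.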

How the data were processed

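The 18 deposited lists are Genrich 0.6.1 peak calls that the authors made for each library and strand from reads trimmed with Trim Galore 0.6.6 and aligned to GRCm38 with NextGenMap 0.5.5. The deposited score is the area under the significance curve, and the authors also deposited −log10 P-values, raw and adjusted. The area grows with depth and was used within a library. The lists hold no counts, so depth cannot be read from them. The paper gives approximate read numbers for its libraries, which were not used here. Libraries were grouped by the deposited labels.

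Exons of all GENCODE M21 transcripts of a gene were joined. Genotypes were compared by exact permutation of 3 libraries against 3, and fractions by exact permutation within genotypes (400 arrangements) with Benjamini-Hochberg adjustment over all genes with a peak, at 0.05, two-sided. The genes and lists were chosen with earlier results of these data known. Named are the 9 genes, other Serpina genes and serpins with a peak, the 5 genes most alike to Serpina1d and to Serpina6, each gene's strongest peaks, Adar, Mavs and cell type markers. Not every serpin looked up is reported here. Of the remaining marker lists, 3 of 5 macrophage, 3 of 4 endothelial, 2 of 3 stellate and 0 of 4 cholangiocyte genes had an exonic input peak. Alternatives were peaks on either strand, exons of the longest coding transcript, a minimum area of 1000, as many peaks in each library as in the smallest, distinguishing bases only, each library left out and a replicate block. The scripts were tested on simulated data. Python 3.11.15, numpy 2.4.6, pandas 2.3.3, Biopython 1.88 and matplotlib 3.10.9 were used.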

Additional observations from a re-analysis of the deposited data

Results flagged for a closer look

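The digested peaks in the Serpina3m intron past the end of Serpina3k lie outside the exons that were compared, and the corresponding Mavs-/- libraries had none, which is why they are given here. MDA5-protected peaks covered 203 bases in editing-deficient replicate 1 and 511 bases in replicate 2, and RNase-only peaks covered 132 bases in replicate 2, against 0 bases in editing-deficient replicate 3 and in the 3 Mavs-/- libraries of each fraction. The difference between genotypes was not tested on these values, because editing-deficient replicate 3 is at 0 as well.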

How the results depend on the processing

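The 2 of 9 genes without overlap between genotypes in the input (Serpina3k and Serpina10) became 4 with a minimum area of 1000 (Serpina1b, Serpina1e, Serpina3k and Serpina3m, where Serpina10 overlapped; 472 of 2342 genes in all, 20.2%) and 2 to 4 with 1 library left out, 4 only without editing-deficient replicate 1 (Serpina1b and Serpina3m added; 1581 of 5177 genes in all, 30.5%). The 8 of 9 genes called lower in RNase-only RNA, a direction fixed by how the lists were made, became 7 to 8 with 1 library left out. The gene lost was Serpina10, without Mavs-/- RNase-only replicate 1 or 2. The counts of 0 in digested RNA stayed at 0 under every alternative run. The genotype difference of Serpina1e, which overlapped, turned to -0.0412 percentage points with equal numbers of peaks and ran from -0.381 (without editing-deficient replicate 3) to 7.41 with 1 input library left out, and that of Serpina1d from -0.0717 (without Mavs-/- replicate 3) to 4.27.

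As a replicate block, a sign-flip test over 6 pairs cannot give a p under 0.0312, and 0 of 9 genes and 0 of 7244 in all then passed against RNase-only RNA (8 and 1454 with an unadjusted p under 0.05), while the 2 genes between genotypes remained (Serpina3k and Serpina10). Deviations of same-numbered libraries correlated above 0.1 in all 3 pairs of RNase-only and MDA5-protected RNA of editing-deficient mice (0.132 to 0.267, each best with its own number) and in 2 of 3 pairs of Mavs-/- mice (0.0587 to 0.281). These correlations were not tested, and the labels do not say that a number marks 1 animal across fractions. In that comparison none of the 9 genes had a value to test, and 0 of 3718 genes passed with the block too (243 with an unadjusted p under 0.05). In the comparisons of input with RNase-only RNA 0 of 6 pairs and in those of genotypes 1 of 9 pairs were above 0.1.

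The words found once in the genome were not run, since only transcripts were used here. In their place, bases under a 75-base word found in no other gene's transcript, chosen after seeing the data, gave the same counts.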
